A study of Rattus norvegicus with 12 samples.

Results

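Of the 14217 genes measured in F111 rat fibroblasts, 74 bear the names of families of enzymes that add or remove chemical marks on histones or DNA. Among them 16, also grouped by name, belong to families of demethylases that need molecular oxygen. The 74 were chosen by name alone: the gene symbol had to begin with that of a lysine demethylase (Kdm), a lysine or arginine methyltransferase (Kmt, Setd, Ezh, Suv39h, Ehmt, Prmt), a lysine acetyltransferase (Kat), a deacetylase (Hdac, Sirt), a DNA methyltransferase (Dnmt), a TET gene, a Jmjd gene or Phf8. The oxygen-dependent demethylases were the Kdm2 to Kdm8 families and the TET genes, which left 58 other members. This split by name does not mean that none of the 58 needs oxygen. All 74 are described below, among them some that act on proteins other than histones or lack enzyme activity of their own.

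F111 is an established line of normal rat (Fischer strain) fibroblasts that grows attached to plastic. Cells were detached and kept for 16 h in the same serum-containing medium, either attached to plastic (A16, the control) or in suspension on agarose (NA16), with no gene altered and no drug added in either state. The study describes NA16 cells as the survivors of suspension culture, in which most cells lost viability, and F111 cells as an aneuploid line. No removal of dead or dying cells before RNA was taken is described. NA16 RNA may thus come from both surviving and dying cells of 1 cell line. Labelled RNA was hybridised to 6 Affymetrix rat arrays, 3 for A16 and 3 for NA16. Biological replicates 1 and 2 of each state were joined by an array labelled technical replicate 2, which was averaged with biological replicate 1. This gave n = 2 per state, and that small number limits how precise each value is. Where replicate 1 of a state is left out below, both of its arrays are left out. Levels are log2 of the deposited RMA intensity, a brightness that cannot be compared between genes, and a change is NA16 minus A16 on that log2 scale. Levels per array are given below in the order biological replicate 1, biological replicate 2, technical replicate 2.

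Histone lysine methylation is written by SET-domain methyltransferases and removed by the flavin-dependent Kdm1 enzymes and by the larger family with a Jumonji C (JmjC) domain. JmjC demethylases and the TET enzymes, which oxidise methylated cytosine in DNA, share a mechanism: an iron ion in the active site uses molecular oxygen and 2-oxoglutarate to hydroxylate the methyl group. Several JmjC genes are themselves known targets of the hypoxia-inducible factor (HIF), which becomes active when oxygen is low. Acetyl groups are added by acetyltransferases and removed by zinc-dependent deacetylases (Hdac) and NAD-dependent sirtuins (Sirt).

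Transcripts of the oxygen-dependent demethylases were mostly higher in suspended cells, and those of the other members moved both ways. Of the 16 oxygen-dependent demethylases 11 were higher and 1, Kdm8, was lower in NA16 at an adjusted p below 0.05 (limma, Benjamini-Hochberg over all genes), and 9 of the 11 were at least 2-fold higher. Kdm3a (5.27-fold), Kdm4b (4.61-fold), Tet2 (4.08-fold) and Kdm4c (3.64-fold) changed most. Of the 58 other members 18 were higher and 15 lower, led by the methyltransferase genes Ezh1 (3.64-fold higher) and Setd6 (4.21-fold lower) and by Dnmt1 (3.64-fold lower). Within the 58, the sirtuins (4 of 6 higher, 1 lower) and the other JmjC proteins (3 of 4 higher, 0 lower) were also mostly higher. Among all 14217 genes 38.9% were called, 21.9% higher and 16.9% lower, and 13.9% were called with at least 2-fold change. The members called came to 29 higher and 16 lower of 74, and to 16 higher and 5 lower with at least 2-fold change.

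The median change was 1.04 over the 16 oxygen-dependent demethylases, 0.12 over the 58 other members and 0.01 over all genes. The changes of the 16 ran from -0.85 to 2.40, and 14 of them were above 0. With no overlap between the 3 A16 and the 3 NA16 arrays, 11 of the 16 lay above and 1 below, against 21 above and 17 below among the 58; over all genes 51.7% did not overlap in one direction or the other. Phf8 and the Jmjd genes also carry a JmjC domain although their names put them with the other members. Counted with the oxygen-dependent demethylases they gave 14 higher and 1 lower of 20, with a median of 1.03, and left 15 higher and 15 lower of 54, with a median of 0.04. The lists were described by counts and medians and not tested against each other, since genes are not replicates.

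**Figure D1:**
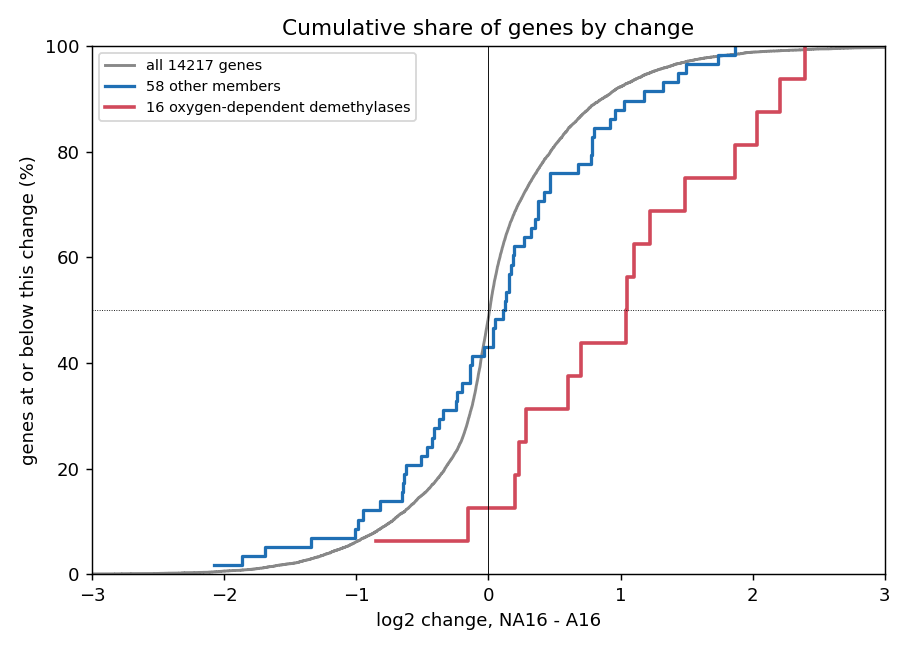
Cumulative share of genes (vertical axis, percent) at or below a given log2 change from A16 to NA16 (horizontal axis) for all 14217 genes, the 58 other members and the 16 oxygen-dependent demethylases. The line of the demethylases lies to the right of the other lines over most of its length and crosses 50% near 1.04, while that of the other members crosses near 0.12.

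In RNA from a whole culture, fewer cells that express a gene and less of its RNA per cell cannot be told apart. The arrays were alike in overall brightness, with median intensities of 153 to 158. Most fibroblast markers were bright: 10 of 14, among them Col1a1, Vim, Fn1 and Sparc, had signals above the median gene, while Dcn and Fap were dim. In NA16 5 of the 14 were higher and 0 lower (2 lower at an unadjusted p below 0.05 by limma, 0 by the methods' t-test). Since brightness cannot be compared between genes, the ranks and sums given here do not show how much of each cell type was present. The macrophage markers Ptprc, Csf1r and Adgre1, the epithelial marker Cdh1 and the muscle marker Myod1 were dim in both states. All deposited intensities lie above 16, so no marker could be at 0 even if its RNA was absent. Cd14, which makes up most of the macrophage sum, was not dim: its level was 10.52 ± 0.12 in A16 and 10.17 ± 0.11 in NA16 (SD, n = 2), brighter than 76.3% of genes, and its change of -0.35 was not called. Krt8 and Des were also above the median gene. The summed intensity of the 14 fibroblast markers was 126965 to 155942 on the A16 and 106091 to 147927 on the NA16 arrays. That of the 6 macrophage markers was 1735 to 1966 and 1602 to 1870, with 1 (Cd68) higher, and that of 4 endothelial markers 242 to 279 and 290 to 294, with 1 (Pecam1) higher. Summed intensities of the 5 epithelial markers were 1203 to 1386 in A16 and 2632 to 3087 in NA16, mostly Krt8 (2.4-fold higher, with Epcam also higher), and those of the 4 muscle markers 827 to 930 and 2704 to 4459, mostly Des (5.56-fold higher). The 3′ minus 5′ signal of the beta-actin control probe sets, a sign of RNA or labelling quality, was 0.37 to 0.44 (log2) on the A16 and 0.87 to 0.93 on the NA16 arrays, and that of GAPDH was -0.07 to 0.00 and -0.03 to 0.06. The part of these differences in the results below was not tested.

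Kdm3a removes a repressive methyl mark from histone H3 and is a known HIF target. Its level was 10.00, 10.21 and 9.91 on the A16 arrays and 12.23, 12.62 and 12.46 on the NA16 arrays. All NA16 arrays lay above all A16 arrays, and the change was 2.40 ± 0.15 (SE, n = 2), the largest rise among the 74, with an adjusted p of 8.0e-05. Kdm3b, its paralogue, was at 9.72, 9.54 and 9.95 on the A16 arrays and 9.98, 9.84 and 9.89 on the NA16 arrays. The states overlapped for Kdm3b, and its change of 0.20 (95% confidence interval -0.13 to 0.53) was not called.

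The Kdm4 enzymes act on trimethylated lysines of histone H3, in heterochromatin and in transcribed genes. Kdm4b had levels of 8.28, 8.81 and 8.38 on the A16 arrays and 10.15, 10.97 and 11.01 on the NA16 arrays. Biological replicate 1 was the lowest NA16 array but still above every A16 array, and the change was 2.20 ± 0.20 with an adjusted p of 2.6e-04. Both other Kdm4b probe sets were also called higher, by 1.98 and 1.25. Kdm4c was at 6.23, 6.23 and 6.18 on the A16 arrays and 8.32, 8.04 and 7.93 on the NA16 arrays. Its A16 arrays were close to each other and its NA16 arrays less so, and the change was 1.86 ± 0.11 (adjusted p 7.4e-05). Kdm4d, which is known mainly from testis, was at 7.64, 7.14 and 7.33 on the A16 arrays and 7.57, 7.67 and 7.47 on the NA16 arrays, with overlapping states and no call (0.28, interval -0.07 to 0.63).

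Tet2, which starts the removal of DNA methylation by oxidising methylated cytosine, was at 7.34, 7.52 and 7.54 on the A16 arrays and 9.46, 9.54 and 9.50 on the NA16 arrays. The NA16 arrays were close to each other and stood 4.08-fold above A16 (2.03 ± 0.11, adjusted p 6.8e-05). Tet1 was dim, at 5.47, 5.54 and 5.26 on the A16 arrays and 5.97, 6.23 and 6.18 on the NA16 arrays. Its NA16 arrays lay above all A16 arrays, with a change of 0.70 and an adjusted p of 0.0045; in the PLIER columns, the second deposited normalization, the change was 0.42 and was also called. Tet3, the last TET gene, was at 8.11, 8.10 and 7.93 on the A16 arrays and 8.16, 7.80 and 7.84 on the NA16 arrays, and its change of -0.16 (interval -0.45 to 0.14) was not called on any of its 3 probe sets.

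**Figure D2:**
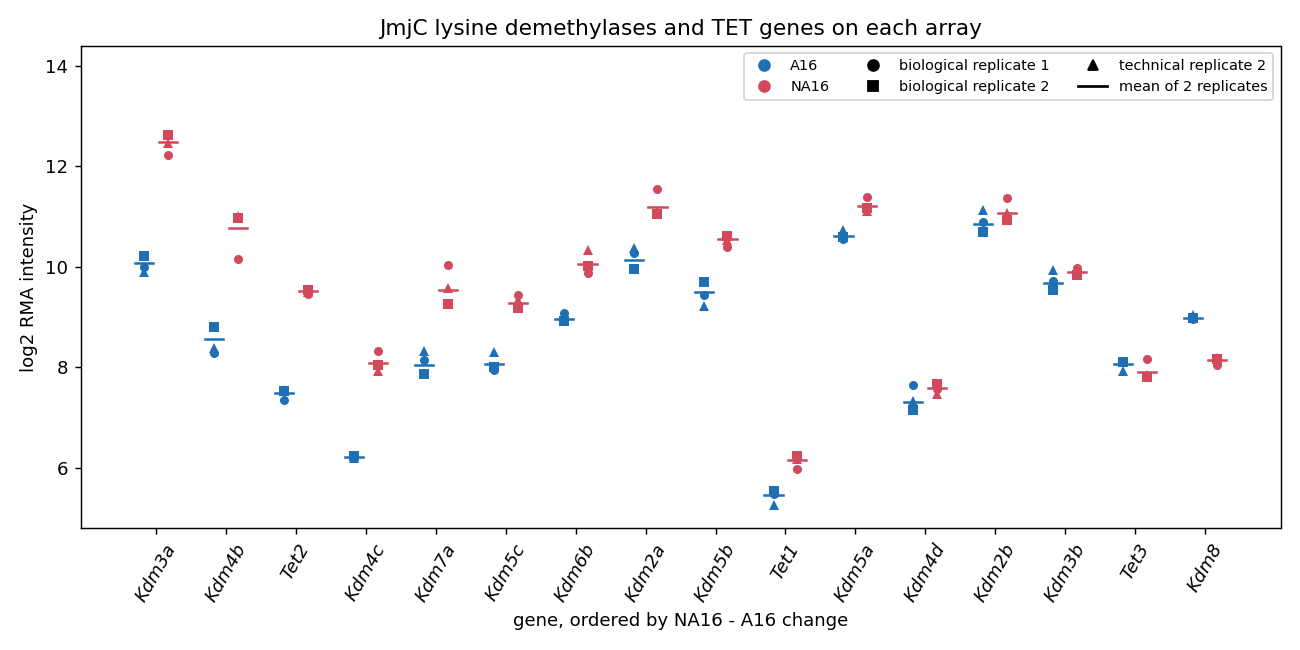
Log2 RMA intensity (vertical axis) of the 13 JmjC lysine demethylase genes and 3 TET genes on each array, A16 in blue and NA16 in red, with circles for biological replicate 1, squares for biological replicate 2, triangles for technical replicate 2 and a line at the mean of the 2 replicates. For 11 genes every NA16 array lies above every A16 array, for Kdm8 every NA16 array lies below, and for Kdm4d, Kdm2b, Kdm3b and Tet3 the states overlap.

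Kdm7a, a demethylase of repressive histone marks, was at 8.13, 7.87 and 8.32 on the A16 arrays and 10.03, 9.27 and 9.58 on the NA16 arrays. Its replicates were among the more scattered, yet the states did not overlap and the change was 1.49 ± 0.21 (adjusted p 0.0014). Kdm6b, which removes the methyl mark laid by the Polycomb complex that holds Ezh1 or Ezh2, was at 9.07, 8.93 and 8.92 on the A16 arrays and 9.88, 10.01 and 10.34 on the NA16 arrays, a change of 1.10 ± 0.11 (adjusted p 4.4e-04). No NA16 array overlapped A16 for Kdm6b.

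The Kdm5 enzymes remove the methyl mark typical of active promoters, and all 3 measured members were higher. Kdm5c was at 7.94, 8.01 and 8.30 on the A16 arrays and 9.44, 9.18 and 9.34 on the NA16 arrays, or 2.33-fold higher in NA16 (adjusted p 4.5e-04). Kdm5b was at 9.44, 9.69 and 9.21 on the A16 arrays and 10.40, 10.62 and 10.54 on the NA16 arrays, or 2.05-fold higher (adjusted p 0.0019). Kdm5a was at 10.55, 10.59 and 10.73 on the A16 arrays and 11.38, 11.18 and 11.12 on the NA16 arrays, or 1.52-fold higher (adjusted p 0.005). None of the 3 overlapped between states. The size depended on the probe set: the dimmer probe sets of Kdm5c gave 0.41 and 0.31 and those of Kdm5a 0.34, 0.21 and 0.18, none of them called, whereas 4 of the 5 Kdm5b probe sets were called higher.

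Kdm2a, a demethylase that binds unmethylated CpG islands, was at 10.27, 9.95 and 10.37 on the A16 arrays and 11.56, 11.05 and 11.08 on the NA16 arrays, or 2.07-fold higher without overlap (adjusted p 0.0025). Its other probe sets changed by 0.64 and -0.0023 and were not called. Kdm2b, its relative in a Polycomb complex, was at 10.90, 10.68 and 11.13 on the A16 arrays and 11.37, 10.93 and 11.08 on the NA16 arrays, with overlapping states and a change of 0.23 (interval -0.15 to 0.61). Kdm8 went the other way: it was at 8.95, 8.98 and 9.04 on the A16 arrays and 8.04, 8.16 and 8.19 on the NA16 arrays, so that every NA16 array lay below A16, with a change of -0.85 ± 0.11 and an adjusted p of 0.001.

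More than 1 probe set was available for 25 of the 74 members, and 0 of the 25 had probe sets called in opposite directions. The count of oxygen-dependent demethylases called was 11 higher and 1 lower, or 10 higher where all probe sets of a gene were averaged, when Kdm5a was not called (0.33). The median of the 16 then fell from 1.04 to 0.67, with Kdm5c at 0.65 and Kdm2a at 0.56. With 2 replicates per state the calls rest on a variance shared across genes: the methods' t-test after Benjamini-Hochberg called 0 of the 16 higher and 0 lower, and at an unadjusted p below 0.05 it called 11 and 1.

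**Figure D3:**
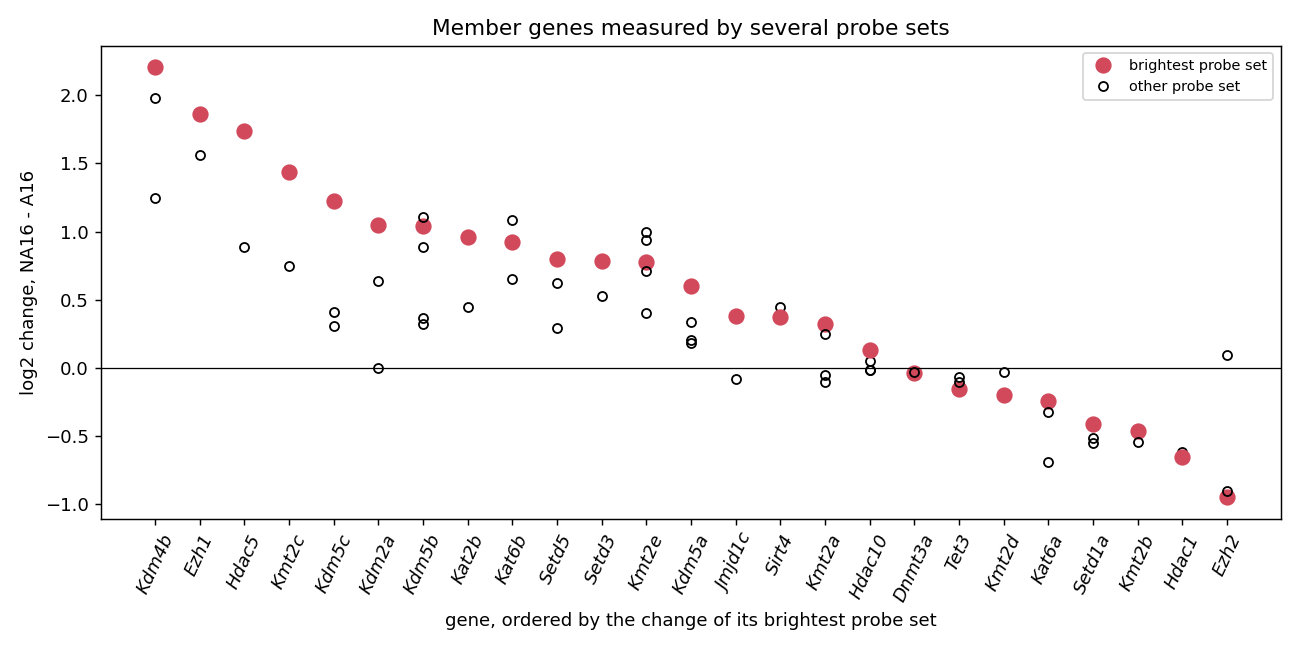
Log2 change from A16 to NA16 (vertical axis) for the 25 members with several probe sets, with the brightest probe set, used throughout, as a filled circle and the others as open circles. The brightest probe set gives the largest rise for Kdm4b, Kdm5c, Kdm2a and Kdm5a, and the open circle of Ezh2 above 0 is a dim probe set.

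The 250 bases before the start of the 4 oxygen-dependent genes that changed most are shown because these genes rose together and HIF binds a known core, ACGTG or GCGTG, that a reader can look for in them. RefSeq promoter windows (GRCr8, 250 bases before to 50 after each start) were listed for 63 of the 74 members, 7 of them with several windows. Sequences run 5′ to 3′ along the gene, and capitals mark every ACGTG or GCGTG on either strand. The Kdm3a stretch lies at chr4:105233371-105233620 (minus strand), that of Kdm4b at chr9:1245653-1245902 (plus), that of Tet2 at chr2:224746187-224746436 (minus) and that of Kdm4c at chr5:93146787-93147036 (plus).
Kdm3a: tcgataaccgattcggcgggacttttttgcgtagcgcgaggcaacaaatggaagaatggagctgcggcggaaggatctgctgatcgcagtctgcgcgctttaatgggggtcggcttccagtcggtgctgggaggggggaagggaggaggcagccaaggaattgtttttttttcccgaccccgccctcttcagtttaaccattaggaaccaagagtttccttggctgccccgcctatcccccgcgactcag
Kdm4b: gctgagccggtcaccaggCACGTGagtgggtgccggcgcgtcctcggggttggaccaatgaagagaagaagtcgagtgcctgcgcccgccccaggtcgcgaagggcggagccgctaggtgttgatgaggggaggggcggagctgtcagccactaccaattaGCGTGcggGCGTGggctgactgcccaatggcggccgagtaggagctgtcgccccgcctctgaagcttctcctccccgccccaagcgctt
Tet2: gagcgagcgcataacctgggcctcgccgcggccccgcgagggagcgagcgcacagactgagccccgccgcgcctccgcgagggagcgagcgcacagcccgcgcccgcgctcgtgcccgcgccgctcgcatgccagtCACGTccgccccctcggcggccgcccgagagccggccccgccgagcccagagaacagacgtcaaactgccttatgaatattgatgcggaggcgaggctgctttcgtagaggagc
Kdm4c: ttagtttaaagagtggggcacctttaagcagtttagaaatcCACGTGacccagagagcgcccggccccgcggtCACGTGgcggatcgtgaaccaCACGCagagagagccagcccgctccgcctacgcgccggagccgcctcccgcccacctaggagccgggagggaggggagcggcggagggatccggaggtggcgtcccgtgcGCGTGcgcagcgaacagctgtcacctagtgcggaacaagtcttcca
The Kdm3a stretch from its first listed start held no match, and a second listed window of Kdm3a, closer to the gene body, held 1. Kdm4b held 4 matches, Kdm4c 6 and Tet2 1 in their windows. A core read on both strands at the same place is the palindrome CACGTG, the E-box bound by other factors, found in Kdm4b and in Kdm4c. The match is common: counting a gene when any of its windows held a core, it stood in 10 of the 16 oxygen-dependent demethylases (62.5%), 39 of 47 other members with a window (83%) and 59.1% of the 11733 tested genes with a window, and in 41.6% of all 33469 windows. A match is a string of letters and not a bound site, and factor binding was not measured.

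Of the 4 other JmjC proteins, 3 were higher and 0 lower (0 lower at an unadjusted p below 0.05, by limma or the methods' t-test). The share called was 75%, against 38.9% of all genes. Jmjd6, a hydroxylase linked to splicing and to arginine methylation, was at 10.58, 10.27 and 10.65 on the A16 arrays and 11.86, 11.53 and 11.55 on the NA16 arrays (2.26-fold higher, adjusted p 0.0011). Phf8, which removes repressive marks at active promoters, was at 9.60, 9.47 and 9.47 on the A16 arrays and 10.65, 10.45 and 10.58 on the NA16 arrays (2.04-fold higher, adjusted p 6.9e-04). Neither overlapped between states. Jmjd1c was called at 0.38 (adjusted p 0.038) by its brightest probe set, with -0.08 on the other, and Jmjd8 was not (0.19).

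The flavin enzymes, which demethylate without the iron and 2-oxoglutarate chemistry, changed little and in opposite directions. Kdm1a, a partner of the CoREST repressor complex, was at 11.05, 11.04 and 11.11 on the A16 arrays and 10.42, 10.75 and 10.81 on the NA16 arrays, a change of -0.38 (adjusted p 0.039). Kdm1b was at 9.53, 9.70 and 9.68 on the A16 arrays and 10.17, 10.05 and 10.04 on the NA16 arrays, a change of 0.42 (adjusted p 0.023). Both were without overlap between states, and both calls were lost whichever 1 of the 4 replicates was left out.

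Among the 20 lysine methyltransferases 5 were higher and 6 lower, with a median of 0.15 (55% called, against 38.9% of all genes). Ezh1 and Ezh2, the alternative catalytic subunits of the Polycomb repressive complex, moved apart. Ezh1, the form of resting and differentiated cells, was at 9.51, 9.47 and 9.61 on the A16 arrays and 11.05, 11.46 and 11.55 on the NA16 arrays, or 3.64-fold higher without overlap (adjusted p 9.1e-05), and its other probe set rose by 1.56. Ezh2, the form of dividing cells, was at 10.50, 10.80 and 10.54 on the A16 arrays and 9.77, 9.74 and 9.57 on the NA16 arrays, or 1.93-fold lower without overlap (adjusted p 0.0015). A second Ezh2 probe set gave -0.90 and was called, and another, dim one gave 0.10; with all 3 averaged the change was -0.58.

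Setd6, which methylates non-histone proteins such as the NF-kB subunit RelA, fell most of the 74. It was at 9.99, 10.04 and 10.03 on the A16 arrays and 7.85, 7.99 and 7.96 on the NA16 arrays, a change of -2.08 ± 0.11 (adjusted p 6.1e-05), and the spread within each state was far smaller than the gap. Suv39h2, which writes the trimethyl mark of heterochromatin, was at 7.92, 7.61 and 7.99 on the A16 arrays and 6.29, 5.99 and 6.09 on the NA16 arrays, or 3.23-fold lower (adjusted p 2.6e-04). Ehmt1, which writes the dimethyl form of that mark, was at 10.11, 10.11 and 10.11 on the A16 arrays and 9.40, 9.48 and 9.55 on the NA16 arrays, or 1.55-fold lower (adjusted p 0.0035), while its partner Ehmt2 was at 10.57, 11.23 and 10.92 on the A16 arrays and 10.01, 11.56 and 11.31 on the NA16 arrays and was not called (0.12, interval -0.58 to 0.83); without NA16 replicate 1 the change of Ehmt2 was 0.57 and was called higher (adjusted p 0.031). No NA16 array overlapped A16 for Setd6, Suv39h2 or Ehmt1, whereas biological replicate 1 was low in both states for Ehmt2.

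Of the Kmt2 genes, which write the methyl mark of enhancers and promoters, Kmt2c was at 8.90, 9.10 and 9.00 on the A16 arrays and 10.40, 10.41 and 10.63 on the NA16 arrays, or 2.71-fold higher (adjusted p 2.0e-04). Kmt2e, which lacks methyltransferase activity of its own, was 1.71-fold higher (adjusted p 0.0077), and 4 of its 5 probe sets were called. Kmt2a (0.32), Kmt2b (-0.46) and Kmt2d (-0.20) were not called. With the replicate number as a block, Kmt2a was called higher and Kmt2b lower. Their changes also depended on single replicates. Kmt2a was 0.58 without NA16 replicate 1, and Kmt2b was -0.94 without NA16 replicate 2 and 0.01 without NA16 replicate 1. Setd5 was at 10.07, 9.86 and 9.54 on the A16 arrays and 10.96, 10.50 and 10.56 on the NA16 arrays (1.74-fold higher, adjusted p 0.0028). Its other probe sets gave 0.62, which was called, and 0.29, which was not. Setd3, an actin histidine methyltransferase, was 1.72-fold higher (adjusted p 0.0025). Its other probe set gave 0.53 and was not called. Kmt5a, which monomethylates histone H4 and is known to vary with the cell cycle, was 2.01-fold lower (adjusted p 0.036) although its arrays overlapped, at 10.85, 11.36 and 10.27 on the A16 arrays and 9.89, 10.28 and 9.37 on the NA16 arrays, and the dim Setd1b was 1.42-fold lower (adjusted p 0.018). Setd1a (-0.41), Setd2 (0.35), Setd4 (0.18), Kmt5b (0.17) and Kmt5c (0.27) were not called. Setd1a was close to the threshold (adjusted p 0.057) and was called lower under 7 of 15 alternatives, with -0.59 in the PLIER columns (adjusted p 0.015). Setd2 was called higher with the replicate number as a block, and its change was 0.50 without A16 replicate 1.

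Prmt5, the main enzyme of symmetric arginine dimethylation, was at 11.23, 11.29 and 11.31 on the A16 arrays and 9.86, 9.97 and 9.96 on the NA16 arrays. The states were far apart compared with the spread within them, and Prmt5 was 2.53-fold lower in NA16 (adjusted p 1.9e-04). Prmt2 was at 10.43, 10.27 and 10.46 on the A16 arrays and 10.88, 11.21 and 11.26 on the NA16 arrays, or 1.72-fold higher without overlap (adjusted p 0.0027), and Prmt3, which methylates a ribosomal protein, was 1.35-fold lower (adjusted p 0.024). Prmt6, Prmt7, Prmt8 and Prmt9 were not called, with changes of -0.24 to 0.15. Carm1, an arginine methyltransferase outside the name rule, was 3.09-fold lower (adjusted p 0.0011).

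Dnmt1, which copies DNA methylation to the new strand at replication, was at 11.16, 11.25 and 11.50 on the A16 arrays and 9.15, 9.51 and 9.54 on the NA16 arrays. Every NA16 array lay far below A16, and Dnmt1 was 3.64-fold lower (-1.86 ± 0.12, adjusted p 9.1e-05). The de novo enzymes Dnmt3a, at 7.21, 7.37 and 7.28 on the A16 arrays and 7.33, 7.20 and 7.35 on the NA16 arrays, and Dnmt3b, which was dim, changed by -0.04 (interval -0.32 to 0.25) and 0.03 (interval -0.24 to 0.31). Of the DNA methyltransferases 1 of 3 was thus lower and 0 higher (0 higher at an unadjusted p below 0.05, by limma or the methods' t-test). The share called was 33.3%, against 38.9% of all genes. Uhrf1, which brings Dnmt1 to hemimethylated DNA, was 3.06-fold lower (adjusted p 4.7e-04), and Tdg and Apex1, which act in base excision after TET oxidation, were 2.54-fold and 3.1-fold lower (adjusted p 1.9e-04 and 1.1e-04). In that list of 14 readers and partners of DNA methylation 4 were higher and 5 lower, with a median of 0.13. Of the list 64.3% were called, against 38.9% of all genes. The highest rise was that of Gadd45a (2.24-fold, adjusted p 6.5e-04), a stress-induced gene.

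Beside Dnmt1, Ezh2, Suv39h2 and Kmt5a, the 18 measured genes of a DNA replication list were all lower, with a median of -1.76 (0 higher at an unadjusted p below 0.05, by limma or the methods' t-test), led by Tk1 (7.07-fold), Gins1 (5.58-fold) and Mcm6 (5.39-fold). Whether a smaller share of cells in S phase had a part in the falls of the 4 enzymes was not tested. The E2F core motifs TTTCCCGC, TTTGGCGC, TTTGCCGC and TTTCGCGC, known from genes of that phase, stood on either strand in the windows of 3 of 14 members called lower (Dnmt1, Ezh2 and Kdm1a), in 1 of 25 called higher and in 1 of 24 not called, against 7.15% of all genes called lower, 2.75% of all genes called higher, 3.74% of tested genes and 2.14% of all windows. Beside the oxygen-dependent demethylases, 17 of 19 measured HIF targets of a list chosen by name were higher and 1 lower, with a median of 2.44, led by Ankrd37 (21.1-fold), Ero1a (14.9-fold) and Adm (11.4-fold). Whether HIF activity had a part in the rises of the demethylases was not tested. The share called was 100% of the DNA replication list and 94.7% of the HIF list, against 38.9% of all genes. The movements of both lists were already known from earlier results of these data when the lists were chosen.

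**Figure D4:**
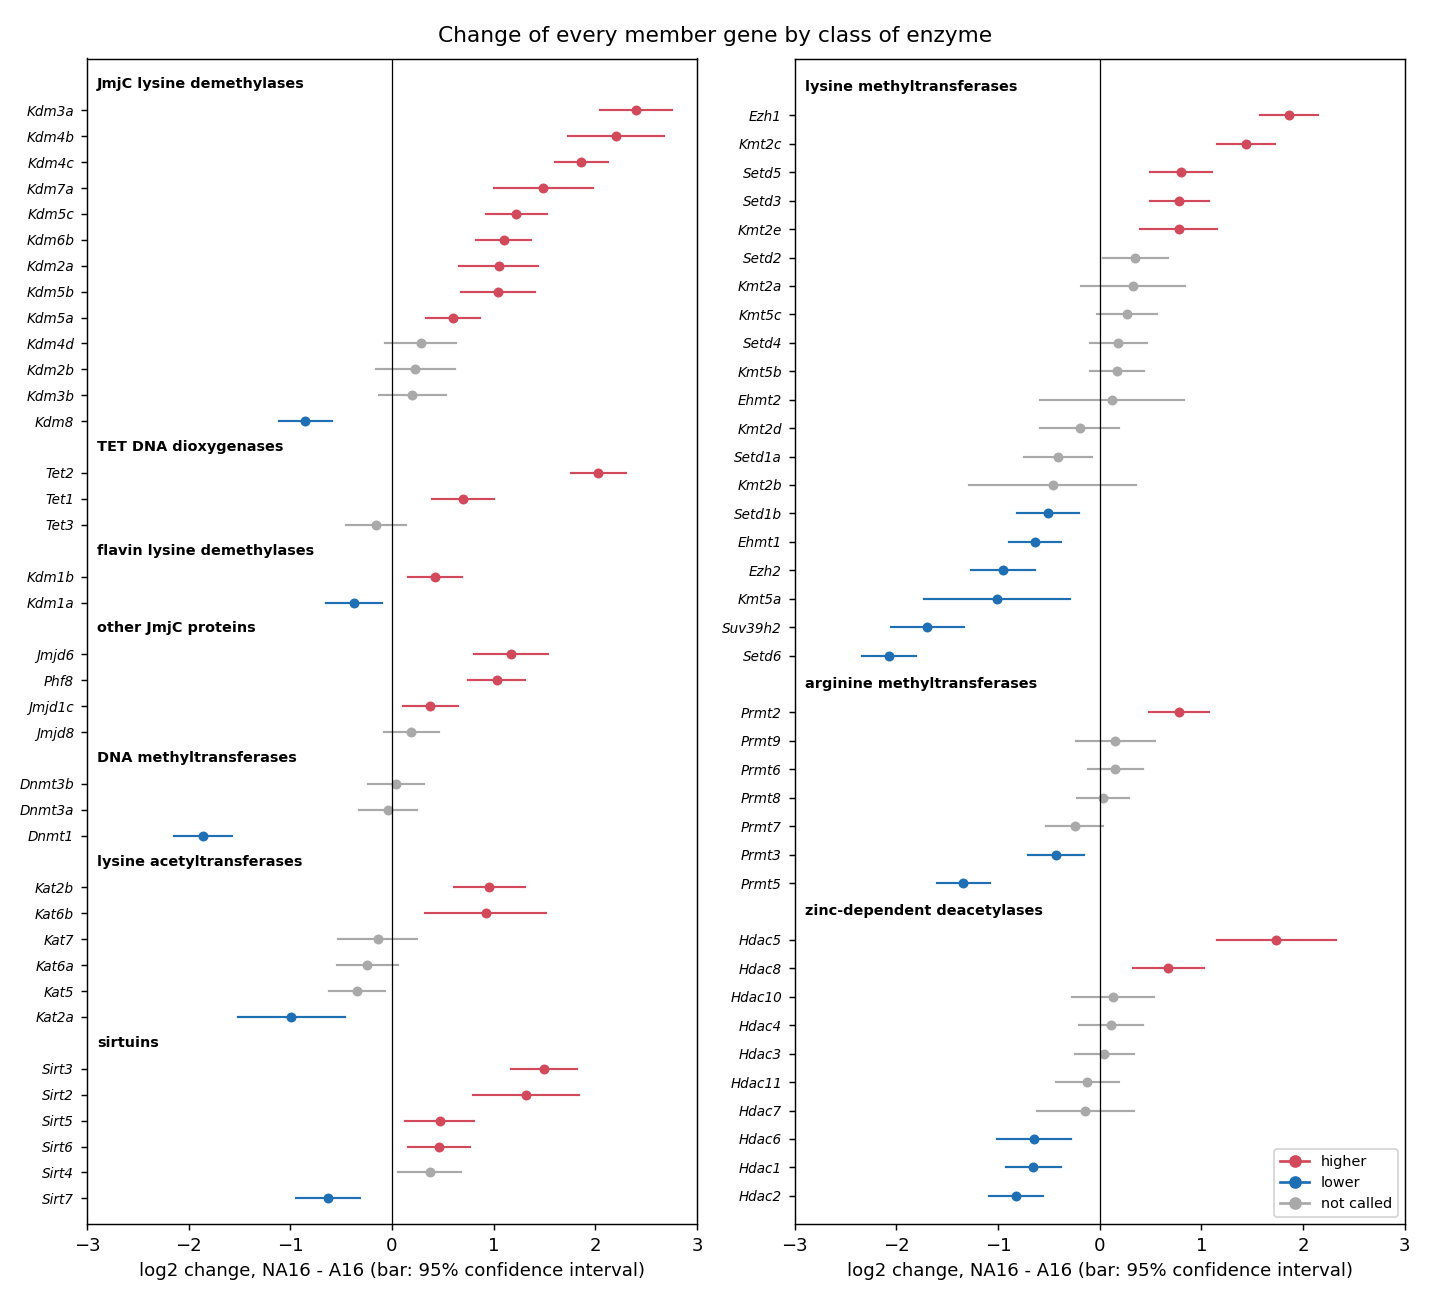
Log2 change from A16 to NA16 (horizontal axis, with 95% confidence intervals as bars) of all 74 members, grouped by class of enzyme and coloured by call at an adjusted p below 0.05. Red points fill most of the JmjC and TET classes, and the other large classes hold red, blue and grey points side by side.

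Of the 6 lysine acetyltransferases 2 were higher and 1 lower (50% called, against 38.9% of all genes). Kat2b was at 10.64, 10.41 and 10.86 on the A16 arrays and 11.70, 11.48 and 11.51 on the NA16 arrays, or 1.94-fold higher (adjusted p 0.0023), while its paralogue Kat2a was at 10.51, 10.87 and 10.87 on the A16 arrays and 8.93, 10.13 and 9.96 on the NA16 arrays, or 1.99-fold lower (adjusted p 0.011). Neither overlapped between states, but biological replicate 1 of NA16 was the lowest array for Kat2a. The change of Kat2a was -0.65 without NA16 replicate 1, which took out that array and technical replicate 2 together. The other probe set of Kat2b gave 0.44 and was not called. Kat6b was 1.89-fold higher (adjusted p 0.025), a change of 0.92 that was 0.59 without NA16 replicate 2. Its other probe sets gave 1.09 and 0.65 and were not called. Kat5, Kat6a and Kat7 were not called (-0.35, -0.24 and -0.14).

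Of the 10 zinc-dependent deacetylases 2 were higher and 3 lower (50% called, against 38.9% of all genes). Hdac5, a class IIa enzyme that shuttles between nucleus and cytoplasm, was at 9.85, 10.48 and 10.51 on the A16 arrays and 11.27, 12.44 and 12.10 on the NA16 arrays, or 3.33-fold higher without overlap (adjusted p 0.0016); its other probe set gave 0.88 and was not called. Hdac8 was 1.6-fold higher (adjusted p 0.0097). Hdac1 and Hdac2, the paired catalytic subunits of the Sin3, NuRD and CoREST complexes, were both lower: Hdac1 was at 12.01, 12.14 and 12.07 on the A16 arrays and 11.24, 11.42 and 11.67 on the NA16 arrays (1.57-fold, adjusted p 0.0037) and Hdac2 at 11.55, 11.54 and 11.34 on the A16 arrays and 10.63, 10.68 and 10.70 on the NA16 arrays (1.77-fold, adjusted p 0.0013). Hdac6, the cytoplasmic tubulin deacetylase, was 1.56-fold lower (adjusted p 0.015). None of the 3 overlapped between states. Hdac3, the NCoR enzyme, was at 10.71, 10.71 and 10.72 on the A16 arrays and 10.57, 10.85 and 10.76 on the NA16 arrays and was not called (0.05, interval -0.24 to 0.33), nor were Hdac4, Hdac7, Hdac10 and Hdac11, between -0.14 and 0.13; Hdac4 was 0.46 in the PLIER columns and called higher there (adjusted p 0.044).

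Of the 6 sirtuins 4 were higher and 1 lower, with a median of 0.47 (83.3% called, against 38.9% of all genes). Sirt3, the main mitochondrial deacetylase, was at 8.12, 8.00 and 8.31 on the A16 arrays and 9.71, 9.50 and 9.72 on the NA16 arrays, or 2.82-fold higher (adjusted p 2.7e-04). Sirt2, largely cytoplasmic, was at 9.67, 10.02 and 9.59 on the A16 arrays and 10.54, 11.43 and 11.17 on the NA16 arrays, or 2.49-fold higher (adjusted p 0.003), with biological replicate 1 the lowest NA16 array. Sirt5 and Sirt6 were each 1.38-fold higher (adjusted p 0.039 and 0.027), Sirt4 was not called (0.37, adjusted p 0.062), and Sirt7, the nucleolar sirtuin, was 1.55-fold lower (adjusted p 0.0092). In the PLIER columns Sirt4 was 0.73 and called higher (adjusted p 0.016), as it was under 6 of 15 alternatives in all. Nampt, which makes the NAD that sirtuins consume, was at 10.80 ± 0.01 in A16 and 12.96 ± 0.10 in NA16 (SD, n = 2), or 4.46-fold higher (adjusted p 6.1e-05), and Acss2, which makes acetyl-CoA from acetate, was 2.65-fold higher (adjusted p 1.5e-04). In that list of 13 genes of acetyl-CoA and NAD supply 2 were higher and 2 lower, with a median of -0.09. Of the list 30.8% were called, below the 38.9% of all genes.

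Other genes of the same complexes and of cofactor supply were counted from lists chosen by name. Over all genes 38.9% were called. In the lists of this paragraph, in the order given, the share called was 37.5%, 33.3%, 58.3%, 29.2% and 55.6%. The Polycomb and deacetylase lists were thus called no more often than all genes. Of 8 partners of Ezh1 and Ezh2, 3 were higher and 0 lower, with a median of 0.04 (0 lower at an unadjusted p below 0.05, by limma or the methods' t-test): Jarid2 (2.23-fold), Aebp2 (2.01-fold) and Phf1 (1.71-fold), all accessory subunits. Of 18 components of the other Polycomb complex, with a median of 0.14, 5 were higher, most of all Phc3 (2.35-fold), Cbx7 (1.91-fold) and Pcgf5 (1.88-fold), and 1, Bcor, was lower (1.35-fold). Of 12 partners of the Kmt2 enzymes 1, Men1, was higher (1.64-fold) and 6 were lower, with a median of -0.36, led by Hcfc1 (2.59-fold), Wdr82 and Paxip1 (both 1.82-fold). Of 24 partners of the deacetylases 2 were higher and 5 lower, with a median of 0.00, among them the CoREST gene Rcor2 (3.73-fold higher) and the NuRD genes Mbd3 and Gatad2a (2.72-fold and 2.56-fold lower). Of 9 heterochromatin proteins 0 were higher (1 at an unadjusted p below 0.05 by limma, 0 by the methods' t-test) and 5 lower, with a median of -0.63, led by Lbr (2.57-fold), a receptor of the inner nuclear membrane.

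Enzymes outside the name rule also went both ways. Of the further oxygenases, methyltransferases and acetyltransferases below, 72.7%, 40.9% and 36.7% were called, against 38.9% of all genes. Of 11 further JmjC and related oxygenases 5 were higher and 3 lower, with a median of 0.24: the RNA demethylase gene Alkbh5 was 2.68-fold higher, Jarid2, a JmjC protein without demethylase activity, 2.23-fold and Hspbap1 2.17-fold higher. Riox1, a ribosomal oxygenase, was 2.15-fold lower. Of 22 further methyltransferases, with a median of 0.04, 5 were higher and 4 lower, with Mettl23 2.95-fold higher and the nucleolar fibrillarin gene Fbl 2.38-fold lower, and of 30 further acetyltransferases and partners, with a median of -0.13, 5 were higher and 6 lower, with Ncoa1 2.4-fold higher and Sgf29 2.59-fold lower.

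In the supply of the methyl donor S-adenosylmethionine 1 of 13 genes was higher and 5 were lower, with a median of -0.17. Of these genes 46.2% were called, and 31.25% of the 2-oxoglutarate, succinate and fumarate enzymes below, against 38.9% of all genes. Mthfd1, a folate enzyme, went from 12.12 ± 0.22 to 10.37 ± 0.12 (SD, n = 2), or 3.36-fold lower (adjusted p 2.0e-04). Mat2a, which makes the donor, was 2.51-fold lower and its regulatory subunit gene Mat2b 2.3-fold higher (adjusted p 2.1e-04 and 4.6e-04). Of 16 enzymes that make or use 2-oxoglutarate, succinate or fumarate, which are cofactor or inhibitors of the JmjC and TET enzymes, 2 were higher and 3 lower, with a median of 0.10. Adhfe1, a mitochondrial transhydrogenase that uses 2-oxoglutarate, went from 6.74 ± 0.17 to 9.73 ± 0.12 (SD, n = 2), or 7.97-fold higher (adjusted p 4.1e-05), and Idh1 was 1.69-fold higher (adjusted p 0.0032). Idh3a, Ogdh and Dlst, of the citric acid cycle, were 2.4-fold, 1.93-fold and 1.87-fold lower (adjusted p 3.3e-04, 0.0022 and 0.0025).

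**Figure D5:**
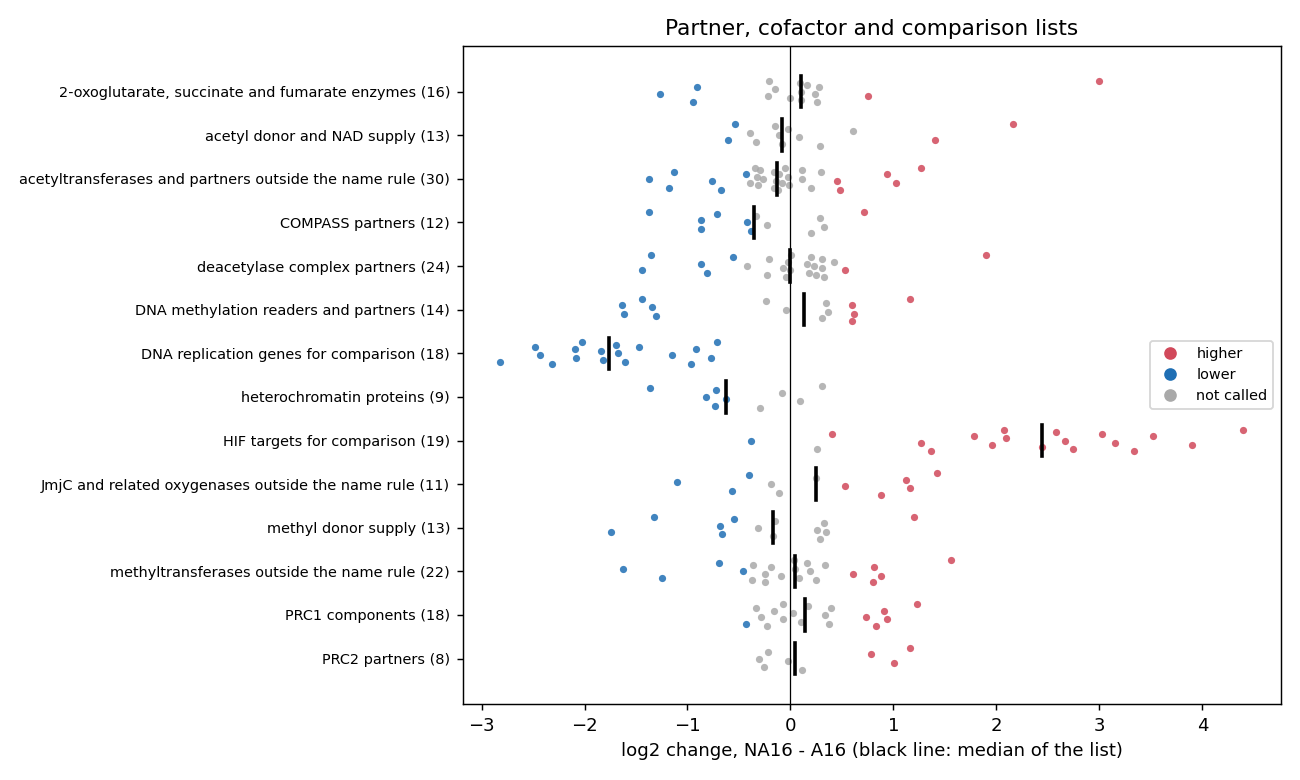
Log2 change from A16 to NA16 (horizontal axis) of each measured gene in the partner, cofactor and comparison lists, coloured by call, with the number of genes measured after each name and a black line at the median. The HIF targets lie mostly to the right (median 2.44) and the DNA replication genes all to the left (median -1.76), and the other lists hold calls in both directions except the PRC2 partners, with none lower, and the heterochromatin proteins, with none higher.

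Of the 45 member calls 31 held under each of the 15 alternatives fitted with limma, among them 11 of the 12 oxygen-dependent demethylases, all but Kdm5a, and 0 turned to the opposite direction. Of the 33 calls among the other members 20 held. With technical replicate 2 left out 8 of the 45 calls were lost, those of Hdac6, Jmjd1c, Kat2a, Kat6b, Kdm1a, Prmt3, Sirt5 and Sirt6. The calls of Jmjd1c and Kmt5a were lost in the PLIER columns, and those of Jmjd1c, Kdm1a and Kmt5a with a variance trend. Jmjd1c, Kdm1a, Kdm1b and Prmt3 lost theirs whichever 1 of the 4 replicates was left out, with adjusted p of 0.11 to 0.34 for Jmjd1c, 0.098 to 0.35 for Kdm1a, 0.052 to 0.18 for Kdm1b and 0.065 to 0.25 for Prmt3. Sirt5 was lost without A16 replicate 1 (0.10), A16 replicate 2 (0.14) or NA16 replicate 1 (0.37, with a change of 0.30), and Sirt6 without A16 replicate 1 (0.12), A16 replicate 2 (0.057) or NA16 replicate 2 (0.25). Hdac6 was lost without A16 replicate 1 (0.075) or NA16 replicate 1 (0.11), Sirt7 without the same (0.051 and 0.073), and Setd1b without A16 replicate 2 (0.089) or NA16 replicate 2 (0.086). Hdac8 (0.052) and Kat6b (0.14) were lost without A16 replicate 1, and Kat2a (0.069) and Kmt5a (0.17, with a change of -0.60) without A16 replicate 2. Of the 29 members not called 10 were called under at least 1 alternative, 0 of them oxygen-dependent demethylases: besides Ehmt2, Kmt2a, Kmt2b, Setd1a, Setd2, Sirt4 and Hdac4, described above, Kat5 was called lower under 5 of 15 (changes of -0.35 to -0.37), Kat6a with all probe sets averaged (-0.42, adjusted p 0.032) and Kmt5c with the replicate number as a block (adjusted p 0.042). By the methods' t-test after Benjamini-Hochberg 0 members were higher and 1, Ehmt1, was lower, against 22 and 13 at an unadjusted p below 0.05.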

How the data were processed

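The authors normalized scanned arrays of A16 and NA16 RNA with RMA and with PLIER (versions not given in the sources used here) and deposited linear intensities, 1 column per array and algorithm (12 columns for 6 arrays). All values lie above 16, so a constant appears to have been added, which would understate changes of dim genes. RMA columns were used, as log2 intensity. Technical replicate 2 was averaged with biological replicate 1, the reading the labels point to; by correlation it was nearest to biological replicate 1 in A16 (0.997 against 0.991) but to biological replicate 2 in NA16 (0.997 against 0.993). The sources used here do not say what made a repeat biological, and the spread behind each p-value may therefore be technical.

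Without controls there were 31042 probe sets, and the platform annotation gave 1 gene symbol for 20826, several for 436 and none for 9780. For each of 14217 genes the brightest single-symbol probe set was used. Member symbols were checked through Entrez identifiers against RefSeq: 73 of 74 matched and 0 changed. Prmt1 and Suv39h1, which lie only on probe sets with several symbols, were not analysed here. Sirt1, Kdm4a, Kdm6a and Hdac9 were also not among the 74, so the class counts do not cover whole families. The states were compared with limma 3.58.1 (lmFit, eBayes; R 4.3.3), with 2 residual and 4.78 prior degrees of freedom. P-values were adjusted by Benjamini-Hochberg across the 14217 genes, an adjusted p below 0.05 was called, and calls of at least 2-fold were also counted. "Higher" and "lower" without a p mean called by this fit. The fit was tested on simulated data before use. Calls of single probe sets came from a separate limma fit, adjusted across the 31042 probe sets. In that fit the brightest probe sets of Kat6b, Kdm1a, Sirt5 and Kmt5a were not called (adjusted p 0.051, 0.051, 0.061 and 0.070).

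The members, classes and lists were chosen by name with earlier results of these data known, so no test over a list was made, and the movements of HIF targets and DNA replication genes were among those results. Every member may be named; full values are given for the oxygen-dependent demethylases and for up to 4 called members of each other class by size of change, and up to 3 called genes of each list. Alternatives were the PLIER columns, other uses of technical replicate 2, the mean of all probe sets, 16 subtracted, dim genes left out, arrays centred on their medians, a variance trend, the replicate number as a block, each replicate left out, and the methods' t-test.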

Additional observations from a re-analysis of the deposited data

How the results depend on the processing

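Under the 15 alternatives fitted with limma, 35 to 45 of the 45 member calls held and 0 were made in the opposite direction; the counts of members, of oxygen-dependent demethylases (10 to 11 higher, 1 lower) and of other members called stayed within 1.5 times those reported. The median change of the oxygen-dependent demethylases, 1.04, was 1.11 in the PLIER columns, 0.94 with technical replicate 2 left out and 0.67 with all probe sets of a gene averaged, which takes in dimmer probe sets of Kdm2a, Kdm5a and Kdm5c, and ranged from 0.97 to 1.06 with 1 replicate left out. That of the other members, 0.12, was 0.027 with technical replicate 2 averaged with biological replicate 2, 0.024 with it averaged with its nearest array (an alternative chosen after seeing the data), and ranged from 0.034 to 0.15 with 1 replicate left out; the cause was not tested. The methods' t-test, unadjusted with at least 2-fold change, gave 1020 for genes called higher and 789 for genes called lower, against 1101 and 870 called by limma with at least 2-fold change (3115 and 2409 of any size). Of the members it called 14 and 4 (limma with 2-fold change 16 and 5), of the oxygen-dependent demethylases 9 and 0 (9 and 0), and of the other members 5 and 4 (7 and 5). After Benjamini-Hochberg it called 13 genes higher and 7 lower, 0 and 1 of the members, 0 and 0 of the oxygen-dependent demethylases and 0 and 1 of the other members. The replicates share only a number (2 pairs, whose deviations correlated at 0.56 across genes): with the replicate block 33 members were higher and 19 lower, all 45 calls were kept and 7 were new. Signal over background limits Tet1, Dnmt3b, Setd1b, Prmt8 and Hdac11, the members in the dimmest 25% of genes, for which a change would be understated. Kdm4c in A16 (6.22) and Suv39h2 in NA16 (6.09) were about as dim as Hdac11 (6.19 in A16, 6.07 in NA16). Their changes may be understated too.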
